A study of Homo sapiens with 8 samples.

Results

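The genes described here are 32 hosts of small nucleolar RNAs, taken by name from a table of 54261 genes. The rule took every symbol that starts with SNHG (small nucleolar RNA host gene) followed by digits, which gave 21 genes, and 11 further genes named singly. Of the 32 genes, 25 are noncoding hosts (the 21 SNHG genes, GAS5, DANCR, ZFAS1 and EPB41L4A-AS1) and 7 code for proteins (TAF1D, NOP56, NOP58, NCL, EIF4A2, DKC1 and FBL). SNHG24, with 0 to 3 counts in each library, passed no filter on low counts, and 31 genes were tested in each comparison. The libraries were made from total RNA after removal of ribosomal RNA. The untreated normal human intestinal epithelial cell lines NCM460 and HIEC6 (n = 2 lines) and the untreated CRC cell lines DLD1, HCT116 and HCT8 (n = 3 lines) were sequenced as 1 library each, and the 3 CRC lines were sequenced again after hypoxia treatment. All cells were given as passage P5, and neither the oxygen level nor the duration of the treatment was given in the sources used here. Replicates of a group were therefore different lines, and every error given for a group describes variation from line to line.

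Small nucleolar RNAs (snoRNAs) guide chemical modification of ribosomal RNA. C/D box snoRNAs direct 2′-O-methylation together with NOP56, NOP58, fibrillarin (FBL) and SNU13, and H/ACA box snoRNAs direct pseudouridylation together with dyskerin (DKC1), NOP10, NHP2 and GAR1. Most human snoRNAs are cut out of introns of a host transcript, and many hosts are themselves genes of ribosome production or translation. The spliced RNA of several noncoding hosts, GAS5 and SNHG1 among them, is known as a target of nonsense-mediated decay, so its level reflects decay as well as transcription. Several hosts begin with a 5′ terminal oligopyrimidine tract, the motif that ties translation of ribosomal protein mRNAs to growth signals. SNHG genes are often studied in colorectal carcinoma as RNAs that differ between tumor and normal mucosa.

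Total counts lay between 45519306 and 57374239, so that 1 count corresponded to 0.0174 to 0.0220 CPM (counts per 1000000 counts of the column). Intervals on single libraries below cover counting error only. Libraries did not all stand where their labels put them. HIEC6 had EPCAM at 0.176 CPM and KRT19 at 0.987 CPM. Only 3 of 11 intestinal epithelial markers (KRT8, KRT18 and CDH1) reached 1 CPM there, against 6 in NCM460 and HCT116, 8 in DLD1 and 10 in HCT8. KRT8 and KRT18 were higher in HIEC6 (4290 and 3725 CPM) than in NCM460 (1864 and 1574 CPM). Of 10 mesenchymal markers, 7 reached 1 CPM in HIEC6, as in NCM460 and HCT116. VIM (1223 CPM in HIEC6), COL1A1, FN1, ZEB1, TWIST1 and PDGFRB were higher in HIEC6 than in NCM460. COL1A2, COL3A1, SPARC and THY1 were lower. NCM460, labelled normal, resembled HCT116: across genes, which are not independent replicates, log2 CPM of these libraries correlated at r = 0.994, the same value as between DLD1 and its own hypoxia library, against 0.924 between NCM460 and HIEC6. All 10 hypoxia response genes were higher under hypoxia in DLD1 and HCT116 and 9 of 10 in HCT8, where BNIP3 had at most 1 count. The hypoxia libraries shared no run label with the untreated CRC libraries, so run and treatment cannot be told apart. In the HCT116 pair, the median log2 ratio over 18485 genes was −0.35 on column totals and 0.01 after TMM normalization, and directions in that pair are given on both scales where they differ.

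The annotated first bases of 26 of the hosts were found in the RefSeq table of start sites (GRCh38.p14). In 9 of the 26 (34.6%), the annotated transcript began with C and went on with C or T for at least 5 bases, against 1429 of 35116 start sites in the table (4.07%). The first share counts genes and the second counts start sites, so they are not in the same unit. Counted by gene, among genes tested under hypoxia, 829 had the run at any annotated start and 11436 did not. The 9 hosts were SNHG4, SNHG5, SNHG12, SNHG18, SNHG19, ZFAS1, TAF1D, EIF4A2 and FBL. In the windows below, 10 bases before the first transcribed base are followed by 20 bases from it, read 5′ to 3′ on the strand of the gene, and capitals mark the run of pyrimidines from the first base. The first 6 hosts have the run and the last 3 do not. Hypoxia values of hosts with and without the run are given side by side further on. The last 3 are the hosts that were over 1.5-fold lower under hypoxia in all 3 lines. They therefore do not stand for the 17 hosts with an annotated start but without the run.
TAF1D, chr11:93741476-93741505, minus strand: aatagccaacCCTTTTCTTCCgcacggttg
EIF4A2, chr3:186783567-186783596, plus strand: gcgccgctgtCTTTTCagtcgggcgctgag
ZFAS1, chr20:49278632-49278661, plus strand: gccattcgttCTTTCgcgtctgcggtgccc
SNHG5, chr6:85678714-85678743, minus strand: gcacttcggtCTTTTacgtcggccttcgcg
SNHG19, chr16:2155339-2155368, minus strand: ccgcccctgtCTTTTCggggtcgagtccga
SNHG12, chr1:28581854-28581883, minus strand: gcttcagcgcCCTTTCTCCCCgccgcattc
NOP56, chr20:2652622-2652651, plus strand: cgctagccgcattgcgagccgaacccggga
DKC1, chrX:154762854-154762883, plus strand: gtgcgcgggtgggtgggtcctagcagcgcg
SNHG20, chr17:77088633-77088662, plus strand: ttccggccggaagttgctgacggagctact

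CPM values are not scaled by transcript length, so levels are compared between libraries and not between genes. NCL, which codes for nucleolin, an abundant protein of the nucleolus, had 788 CPM in NCM460 and 478 in HIEC6, the CRC lines DLD1, HCT116 and HCT8 had 1151, 844 and 784 CPM, and hypoxia libraries had 967, 417 and 493 CPM in the same order. EIF4A2, a DEAD-box helicase of translation initiation, had 793, 305, 566, 537 and 584 CPM in the untreated lines in the same order, and 363, 448 and 335 CPM under hypoxia. Both genes were lowest in HIEC6 among the untreated lines. SNHG16, a noncoding host with many counts, split the lines: 548 CPM in NCM460 and 488 CPM in HCT116, against 238 in HIEC6, 129 in DLD1 and 176 in HCT8. Counts were low for several hosts: FBL had 2.65 to 7.10 CPM in the 8 libraries, SNHG20 1.55 to 5.98 CPM, SNHG9 0.0879 to 0.935 CPM and SNHG22 at most 0.461 CPM. FBL makes an abundant nucleolar protein, and EIF4A1, a paralog of EIF4A2, was listed at 0 in all libraries, so a low transcript level and a loss in counting cannot be told apart for a low or zero entry of this table.

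**Figure D1:**
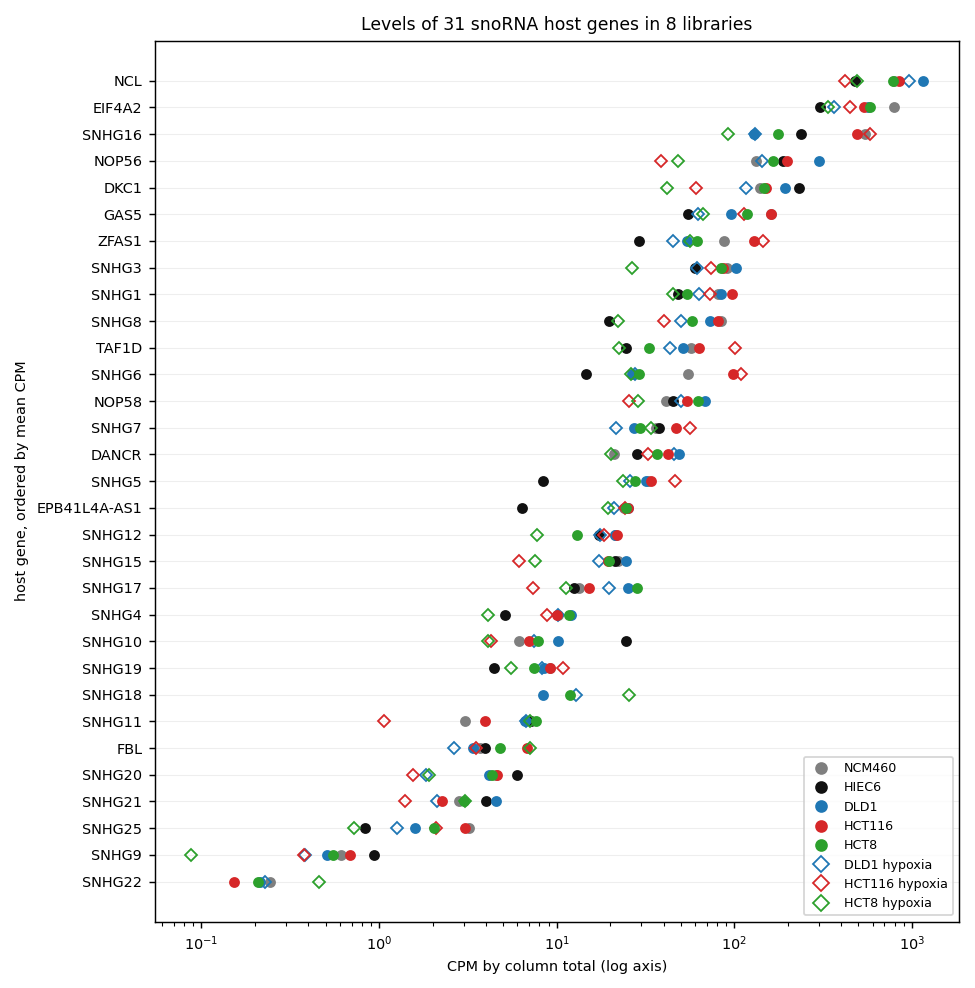
CPM by column total (log axis) of the 31 hosts other than SNHG24, 1 row per gene ordered by mean CPM; filled circles are untreated lines, open diamonds the CRC lines under hypoxia, and values at or under 3 counts are left out. HIEC6 is the lowest untreated line for 16 hosts, and the open diamonds of HCT8 lie left of its filled circle for 26 of 31.

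Among the untreated lines, the widest range belonged to SNHG18, which was present in DLD1 (8.36 CPM, 428 counts) and HCT8 (11.9 CPM, 626 counts) and had 2 counts in NCM460 and 0 in HIEC6 and HCT116. Taking 3 counts per library as the floor, DLD1 was at least 158-fold and HCT8 at least 225-fold higher than HIEC6, and they were at least 146-fold and 207-fold higher than HCT116. SNHG6 had 98.3 CPM in HCT116, 55.0 in NCM460, 29.2 in HCT8, 26.4 in DLD1 and 14.6 in HIEC6. ZFAS1, the antisense host of 3 SNORD12 snoRNAs, had 128 CPM in HCT116, 87.2 in NCM460, 61.3 in HCT8, 54.4 in DLD1 and 29.0 in HIEC6. The order of the lines was the same in SNHG6 and ZFAS1. SNHG8 had 83.6 CPM in NCM460, 80.8 in HCT116, 72.5 in DLD1, 57.6 in HCT8 and 19.6 in HIEC6.

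HIEC6 had the lowest level of the 5 untreated lines in 16 of 31 hosts, beside 38.3% of 19964 genes, and the highest in 4 (SNHG9, SNHG10, SNHG20 and DKC1), beside 20.9%. NCM460 and HCT116 were both above the other 3 lines in 9 hosts (SNHG5, SNHG6, SNHG8, SNHG16, SNHG19, SNHG25, GAS5, ZFAS1 and TAF1D), beside 19.1% of genes. NCM460 lay within 1.5-fold of HCT116 in 26 of 30 hosts with at least 20 counts over the pair of libraries, beside 71.9% of genes. For the other lines the same count was 20 of 30 in HCT8 (46.1% of genes), 18 of 30 in DLD1 (44.7%) and 10 of 29 in HIEC6 (33.1%). The median absolute log2 ratio of the hosts to HCT116 was 0.17 in NCM460, 0.32 in HCT8, 0.35 in DLD1 and 0.82 in HIEC6. The hosts thus followed the similarity of the whole libraries, with the line labelled normal closest to a CRC line.

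The first comparison asked whether CRC lines differ from normal lines. No host passed (0 of 31) in edgeR's quasi-likelihood test, and none had an unadjusted p under 0.05; among all 19964 genes 0 passed (0%) and 542 had an unadjusted p under 0.05, while DESeq2 called 143 genes and no host, and limma-trend called 0 genes. The log2 fold change (CRC over normal) was above 0 in 21 hosts and below 0 in 10, with a median of 0.14, against −0.0048 over all genes. This median rested on the lines used: it was 0.45 without NCM460 and −0.15 without HIEC6. Leaving out a CRC line gave 0.12 without DLD1, −0.09 without HCT116 and 0.28 without HCT8. The normal lines were themselves far apart. GAS5 (growth arrest specific transcript 5, host of C/D box snoRNAs) had 161 CPM in NCM460 and 54.6 in HIEC6, and 96.2, 161 and 119 CPM in DLD1, HCT116 and HCT8, so the groups overlapped.

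Of the hosts with the largest differences in this comparison, DANCR and SNHG17 had groups that did not overlap. The share of all genes with groups apart is not given here, so this describes these values only. DANCR had 21.1 and 28.3 CPM in the normal lines NCM460 and HIEC6 and 49.1, 42.1 and 36.7 CPM in DLD1, HCT116 and HCT8. Its log2 fold change was 0.59 (SE 0.37, edgeR adjusted p = 0.999). SNHG17 had 13.3 and 12.6 CPM in the normal lines and 25.2, 15.1 and 28.2 CPM in the CRC lines (log2 fold change 0.62, SE 0.43, edgeR adjusted p = 0.999). EPB41L4A-AS1 had 23.9 CPM in NCM460, 6.40 in HIEC6 and 25.2, 25.2 and 24.5 CPM in the CRC lines, and SNHG5 had 32.9, 8.32, 31.9, 34.0 and 27.7 CPM in the same order, so in both genes only HIEC6 stood apart. In the other direction, SNHG10 had 24.5 CPM in HIEC6 and 6.12 CPM in NCM460, against 10.1, 6.95 and 7.84 CPM in the CRC lines (log2 fold change −1.12, SE 0.73), and without HIEC6 the sign turned (0.34). SNHG16 (−0.70, SE 0.72), SNHG20 (−0.46, SE 0.55), DKC1 (−0.38, SE 0.37) and SNHG7 (−0.26, SE 0.40) had the next lowest log2 fold changes, each with an SE about as large as the value or larger. SNHG16 was at −0.077 without NCM460 and −1.58 without HCT116, and DKC1 turned to 0.13 without HIEC6. For SNHG18 the fitted value of 8.07 (SE 3.40) is no measure of the fold, since the normal lines had 2 and 0 counts, and HCT116, a CRC line, had 0 counts as well.

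The second comparison asked what hypoxia did to the hosts in the CRC lines. Within each line, most hosts had a lower CPM under hypoxia: 26 of 31 in DLD1 (50.8% of all genes), 22 of 29 in HCT116 (66.1% of genes) and 26 of 31 in HCT8 (49.5% of genes). On the TMM scale, 17 of 29 were lower in HCT116, beside 49.7% of genes. In DLD1, 7 hosts were over 1.5-fold lower (10.4% of all genes were) and 1 was over 1.5-fold higher (15.9% of genes). In HCT116, 13 were over 1.5-fold lower (40.1% of genes) and 1 higher (16.0% of genes), and on the TMM scale 10 were lower and 5 higher, beside 26.2% and 25.2% of genes. In HCT8, 18 were over 1.5-fold lower (18.1% of genes) and 2 higher (21.7% of genes). With 1 library per line and condition these counts have no test. The hosts' median log2 ratio was −0.35 for DLD1, −0.50 for HCT116 (−0.15 on the TMM scale) and −0.80 for HCT8, against −0.01, −0.35 (0.01) and 0.01 over all genes. In bulk RNA, a smaller number of cells that express a host and less host RNA per cell cannot be told apart.

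Across the lines, 19 of the 29 hosts with at least 20 counts in every pair were lower in all 3 lines, beside 32.0% of 15779 genes. On the TMM scale this was 14 of 29 hosts, beside 25.7% of genes. SNHG20, NOP56 and DKC1 were over 1.5-fold lower in all 3 lines on either scale, 3 of 29 hosts, beside 3.06% of genes on column totals and 2.32% on the TMM scale. None of the 29 was higher in all 3 lines on either scale, where 16.7% (CPM) and 24.2% (TMM) of genes were.

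**Figure D2:**
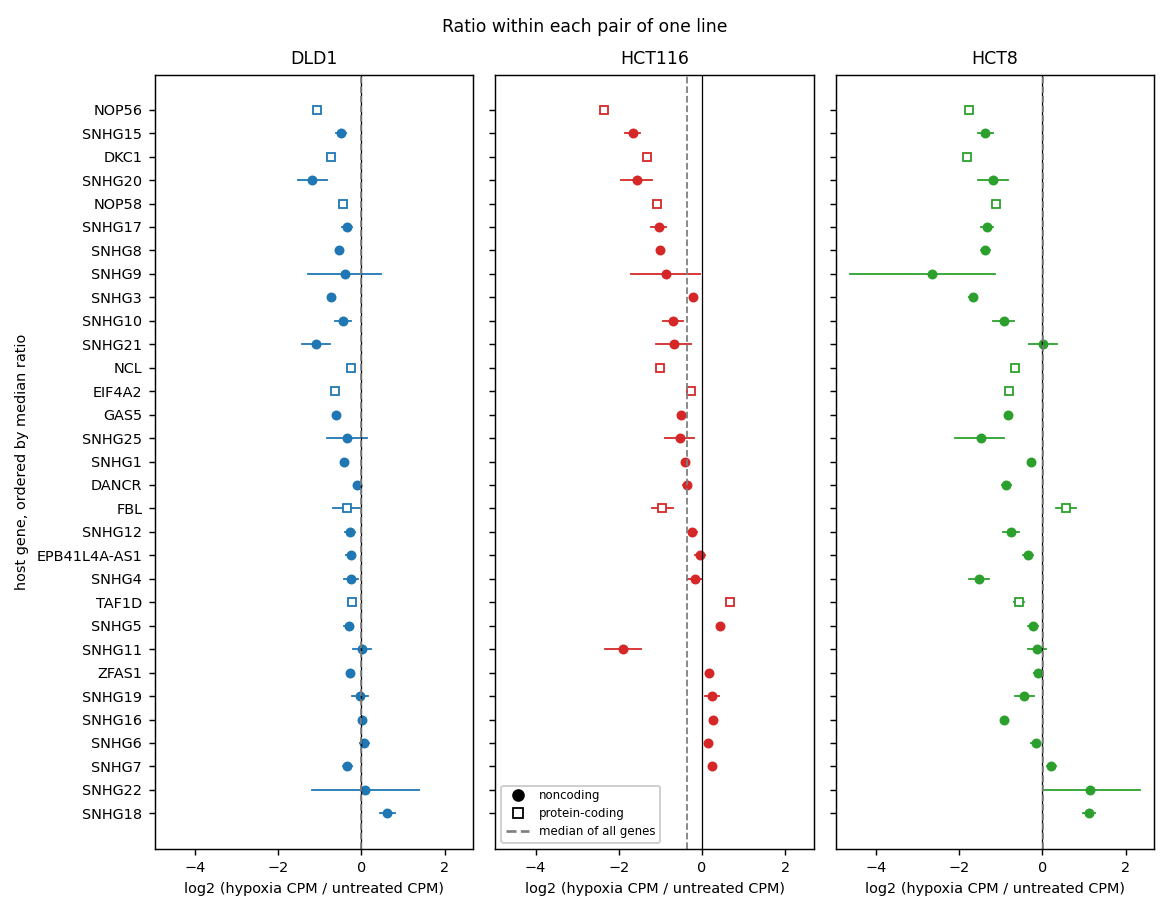
Log2 ratio of CPM under hypoxia to CPM without treatment, 1 panel per line, 1 row per host ordered by the median of the lines; bars are 95% intervals of counting error, squares are protein-coding hosts, the solid line is no change and the dashed line is the median of all genes in that pair. Most points lie left of 0, and in HCT116 the dashed line itself lies at −0.35.

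Without pairing the lines, edgeR called 0 of 21045 genes (0%) between hypoxia and untreated libraries and 0 of 31 hosts, with 607 genes and 2 hosts (NOP56 and SNHG20, both lower) at an unadjusted p under 0.05; DESeq2 called 55 genes and no host, and limma-trend 0 genes. With the cell line as a block, which pairs the 2 libraries of a line, edgeR called 200 genes (0.950%), and 1 of 31 hosts, NOP56. In the paired fit 24 of 31 hosts had a log2 fold change below 0, where 47.8% of genes did, and their median was −0.45 against 0.03 for all genes. At an unadjusted p under 0.05, 10 of 31 hosts were lower (8.58% of genes) and 1 was higher (9.88% of genes). DESeq2 with the same block called 6 of the 29 hosts that it gave an adjusted p, all lower, where 4.64% of 15333 genes were called lower: NOP56, DKC1, SNHG15, SNHG20, NOP58 and SNHG8. With edgeR, the paired call of NOP56 was lost without the HCT8 pair, when 6 genes in all were called. Without the HCT116 pair 738 genes and 6 hosts were called (NOP56, DKC1, SNHG3, EIF4A2, GAS5 and SNHG8, all lower).

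NOP56, the core C/D box snoRNP protein whose introns hold 5 snoRNA genes of the table, fell under hypoxia in the paired fit, with the lowest fitted value of the hosts. It had 301 CPM in DLD1, 198 in HCT116 and 165 in HCT8, and 143, 38.6 and 48.5 CPM under hypoxia. Every hypoxia library was below every untreated CRC library. The share of all genes with such a separation is not given, here or for the hosts below. In DLD1 hypoxia CPM was 0.473 of the untreated value, in HCT116 it was 0.195 and in HCT8 0.293, and the paired log2 fold change was −1.60 (SE 0.22, edgeR adjusted p = 0.0228, lower in 3 of 3 lines). The unpaired value was −1.44 (SE 0.55, edgeR adjusted p = 1).

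DKC1, the pseudouridine synthase of H/ACA snoRNPs, had 194 CPM in DLD1 (116 under hypoxia), 152 in HCT116 (60.8 under hypoxia) and 147 in HCT8 (41.7 under hypoxia). All hypoxia libraries again lay below all untreated ones. Its paired log2 fold change of −1.15 (SE 0.24, lower in 3 of 3 lines) did not pass (edgeR adjusted p = 0.0747), and it passed on column totals (−1.29, edgeR adjusted p = 0.0455), with DESeq2 (−1.13, DESeq2 adjusted p = 0.0021) and without the HCT116 pair. NOP58, the partner of NOP56 in C/D box snoRNPs, had 68.1, 54.3 and 62.3 CPM without treatment and 49.9, 25.5 and 28.5 CPM under hypoxia, with no overlap between the groups. NCL had a paired log2 fold change of −0.51 (SE 0.18, edgeR adjusted p = 0.193), and its DLD1 hypoxia library at 967 CPM lay above untreated HCT116 and HCT8. EIF4A2 had −0.43 (SE 0.21, edgeR adjusted p = 0.326); its log2 ratio in HCT116 was −0.26 on column totals and 0.10 on the TMM scale. FBL, low in counts, had 3.40, 6.81 and 4.79 CPM without treatment and 2.65, 3.52 and 7.10 CPM under hypoxia, lower in DLD1 and HCT116 and higher in HCT8.

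No noncoding host passed in the paired edgeR fit, and the lowest log2 fold changes among those with a mean of at least 2 CPM belonged to SNHG20, SNHG15 and SNHG8. SNHG20 had 4.16 CPM in DLD1 (1.83 under hypoxia), 4.59 in HCT116 (1.55) and 4.35 in HCT8 (1.91), a near equal ratio of 0.440, 0.338 and 0.439 in the 3 lines. The groups did not overlap, and the paired log2 fold change was −1.18 (SE 0.34, edgeR adjusted p = 0.136, lower in 3 of 3 lines). SNHG15, the host of SNORA9, went from 24.5, 19.6 and 19.7 CPM to 17.4, 6.16 and 7.58 CPM (−1.04, SE 0.26, edgeR adjusted p = 0.103). SNHG8, the host of SNORA24, went from 72.5, 80.8 and 57.6 CPM to 50.1, 40.3 and 22.3 CPM (−0.83, SE 0.22, edgeR adjusted p = 0.111). In all 3 hosts each hypoxia library was under each untreated CRC library, again without the share over all genes to set beside it. The same order in CPM held for EIF4A2, SNHG3, SNHG9 and EPB41L4A-AS1, so it does not set the hosts named above apart. GAS5 went from 96.2, 161 and 119 CPM to 62.7, 113 and 66.3 CPM. It was lower in each line, but HCT116 under hypoxia stayed above untreated DLD1 (−0.52, SE 0.19, edgeR adjusted p = 0.207). SNHG3, host of the H/ACA snoRNAs SNORA73A and SNORA73B, went from 102, 86.1 and 84.6 CPM to 61.3, 74.3 and 26.6 CPM, and its log2 ratio in HCT116 was −0.21 on column totals and 0.15 on the TMM scale. SNHG17 went from 25.2, 15.1 and 28.2 CPM to 19.8, 7.35 and 11.2 CPM (−0.77, SE 0.25, edgeR adjusted p = 0.168). DANCR had 49.1 CPM in DLD1 and 45.9 under hypoxia, 42.1 and 32.6 CPM in HCT116, and 36.7 and 20.1 CPM in HCT8.

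The other 7 hosts of the HCT116 pair had higher CPM under hypoxia in that line: TAF1D, SNHG5, SNHG16, ZFAS1, SNHG6, SNHG7 and SNHG19. On the TMM scale 12 of 29 hosts were higher there. The further ones were SNHG3 (log2 ratio 0.15), SNHG4 (0.18), SNHG12 (0.11), EPB41L4A-AS1 (0.31) and EIF4A2 (0.10). TAF1D, a subunit of the SL1 factor of RNA polymerase I and host of 8 snoRNA genes of the table, had 51.1 CPM in DLD1 and 43.5 under hypoxia, 33.0 CPM in HCT8 and 22.3 under hypoxia, but 63.1 CPM in HCT116 and 101 under hypoxia. Its HCT116 ratio was 1.61 (95% counting interval 1.54 to 1.68), the single host over 1.5-fold higher in that pair on column totals, and its HCT8 ratio was 0.675 (0.625 to 0.730). SNHG5 had 34.0 CPM in untreated HCT116 and 46.2 under hypoxia, while DLD1 (31.9 and 25.7 CPM) and HCT8 (27.7 and 23.7 CPM) were lower under hypoxia. SNHG16 went from 488 to 583 CPM in HCT116, stayed at 129 and 130.1 CPM in DLD1 and went from 176 to 92.6 CPM in HCT8. ZFAS1 went from 128 to 144 CPM in HCT116, from 54.4 to 45.1 CPM in DLD1 and from 61.3 to 56.5 CPM in HCT8. SNHG6 went from 98.3 to 109 CPM in HCT116 and stayed within 1.5-fold in the other lines. SNHG7 went from 47.2 to 56.1 CPM in HCT116, from 29.4 to 34.1 CPM in HCT8 and from 27.3 to 21.5 CPM in DLD1. SNHG19 went from 9.13 to 10.8 CPM in HCT116, from 8.45 to 8.26 CPM in DLD1 and from 7.44 to 5.51 CPM in HCT8. Without treatment, the 7 hosts had higher CPM in HCT116 than in the other CRC lines. In SNHG5 (34.0 against 31.9 CPM in DLD1) and SNHG19 (9.13 against 8.45 CPM in DLD1) the difference was small. The share of all genes with this order is not given, and a link to the hypoxia values was not tested. Paired log2 fold changes of the 7 hosts lay between −0.08 (SNHG16) and 0.18 (SNHG7), none past the threshold.

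SNHG18 was the host with the highest paired log2 fold change (0.93, SE 0.34, edgeR adjusted p = 0.199). It had 8.36 CPM in DLD1 and 12.9 under hypoxia, a ratio of 1.54 (95% counting interval 1.36 to 1.74), and 11.9 CPM in HCT8 and 25.7 under hypoxia, a ratio of 2.16 (1.96 to 2.38). In HCT116 it had 0 counts without treatment and 1 under hypoxia. SNHG18 was thus higher in both lines in which it was present.

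**Figure D3:**
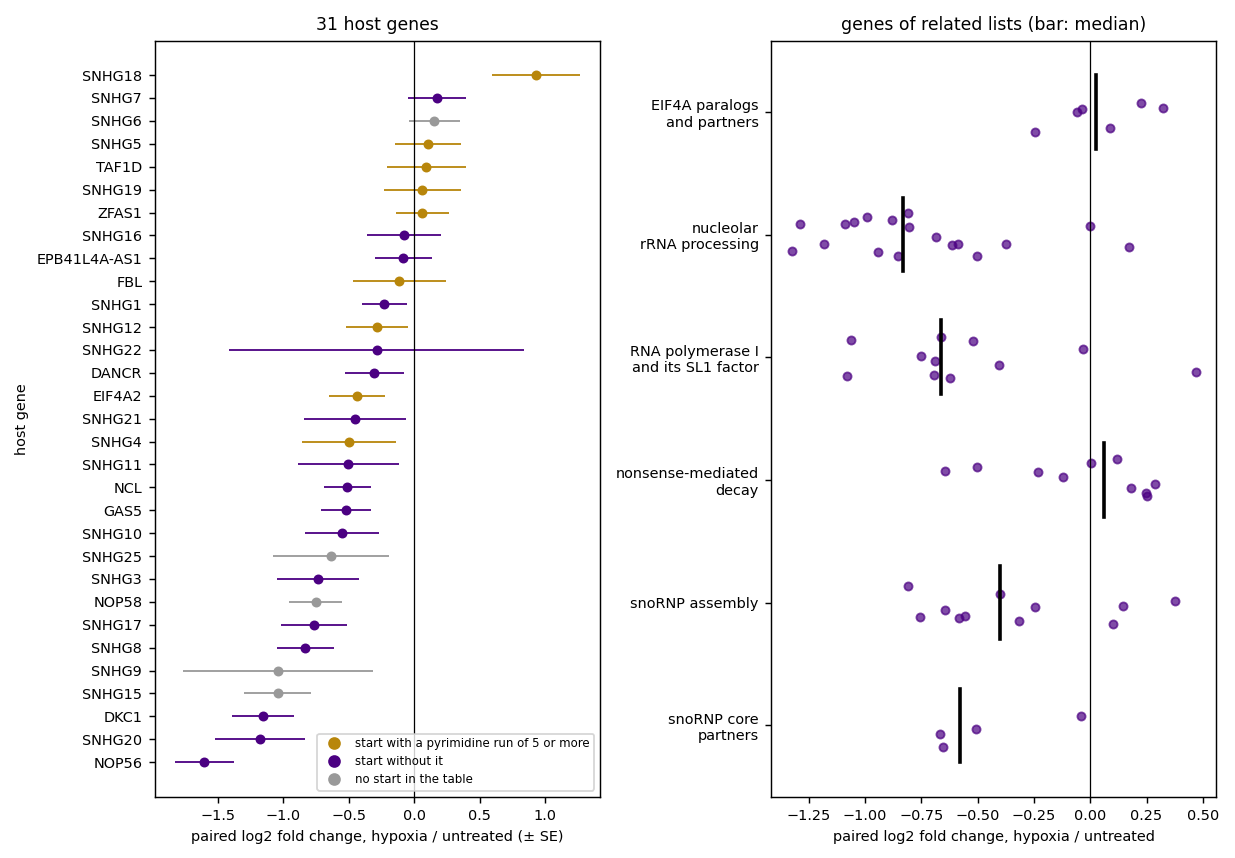
Left, log2 fold change of hypoxia over untreated in the paired edgeR fit (points) with its SE (bars) for 31 hosts, coloured by whether the annotated first bases are a run of at least 5 pyrimidines; right, the same quantity for the genes of 6 related lists, with the median as a bar. NOP56 is the lowest host at −1.60, and the lists of nucleolar rRNA processing (median −0.83) and RNA polymerase I (median −0.66) lie mostly left of 0.

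Hypoxia values are given here by whether the host begins with the pyrimidine run, shown by sequence above for 6 of the 9. Among the 9 hosts with the run, 4 had a paired log2 fold change below 0, with a median of 0.06 and a range from −0.50 (SNHG4) to 0.93 (SNHG18). Among the 17 hosts with an annotated start but without the run, 16 were below 0, with a median of −0.51 and a range from −1.60 (NOP56) to 0.18 (SNHG7). On column totals the medians of the within-line log2 ratio were −0.27 with the run and −0.42 without it in DLD1, −0.0026 and −0.69 in HCT116, and −0.43 and −0.86 in HCT8. Over all genes the median paired log2 fold change was 0.07 for 829 genes with the run at any annotated start and 0.02 for 11436 without it. The split was made after the values had been seen and has no test. It rests on the annotated first base, which need not be the base used in these lines; GAS5 and SNHG1 do not carry the run at the annotated start.

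The snoRNA genes inside the hosts were then read from the same table. Symbols starting SNORA, SNORD or SCARNA were taken as snoRNA genes. The only ones inside SNHG10, SNHG20, SNHG21 and SNHG22 were SCARNA genes (small Cajal body RNAs), which the account of ribosomal RNA guides above does not cover. By RefSeq coordinates, 31 hosts were found (all but SNHG24) and 30 of them held at least 1 of the 463 snoRNA genes of the table, 80 in all; FBL held none. Of the 80, 6 were at 0 in all libraries: those of SNHG7 (SNORA17A and SNORA17B), SNHG10 (SCARNA13) and DKC1 (SNORA36A and SNORA56), and SNORD86 of NOP56. Of 71 tested in the paired fit, 65 were lower under hypoxia, with a median log2 fold change of −0.61, beside 119 of 172 other snoRNA genes with a median of −0.34; none passed (0 of 243; 23 had an unadjusted p under 0.05, 20 of them lower). A read inside an intronic snoRNA can come from unspliced host RNA, so these values are not levels of mature snoRNA.

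Summed over each host, the snoRNA genes were lower under hypoxia in 23 of 27 hosts in DLD1, 22 of 24 in HCT116 and 23 of 27 in HCT8, with median log2 ratios of −0.45, −0.67 and −1.07. Of all genes, 50.8%, 66.1% and 49.5% were lower in the same pairs. Host and summed snoRNAs were both lower in 20, 18 and 22 of these hosts. By line, no share is given over snoRNA genes outside the hosts or over other genes that hold snoRNAs. Whether host and snoRNAs moved together beyond that background was not tested. On the TMM scale, an alternative chosen after seeing the data, the sums were lower in 17 of 24 hosts in HCT116 with a median of −0.31. Of all genes, 49.7% were lower there on that scale. Host and sum were both lower in 11 of 24. For TAF1D the 8 snoRNA genes had 61.0 CPM in HCT116 and 91.4 under hypoxia, 71.0 and 48.9 CPM in DLD1, and 44.4 and 22.8 CPM in HCT8, the same directions as the host in each line. For GAS5 the 11 snoRNA genes went from 43.9, 38.4 and 29.6 CPM in DLD1, HCT116 and HCT8 to 28.8, 32.0 and 11.03 CPM, where the HCT116 sum was not lower on the TMM scale. For SNHG18, SNORD123 had 1.21 CPM in DLD1 and 1.83 under hypoxia, a log2 ratio of 0.60, and 2.92 CPM in HCT8 under hypoxia, a log2 ratio of 0.96, with 0 counts in the HCT116, NCM460 and HIEC6 libraries. For ZFAS1 in HCT116 the signs differed: the host was higher under hypoxia while its 3 snoRNA genes went from 7.54 to 5.79 CPM. The log2 ratio of that sum was −0.38 on column totals, close to the median of −0.35 over all genes in the pair. On column totals the signs also differed in HCT116 for SNHG6 (log2 ratio of the sum −0.67), SNHG16 (−0.12) and SNHG19 (−0.20). The sums of SNHG16 and SNHG19 were not lower on the TMM scale. SNHG22 had at most 21 counts in a library, while SCARNA17 inside it went from 41.0, 16.3 and 21.1 CPM to 55.4, 20.7 and 27.9 CPM.

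**Figure D4:**
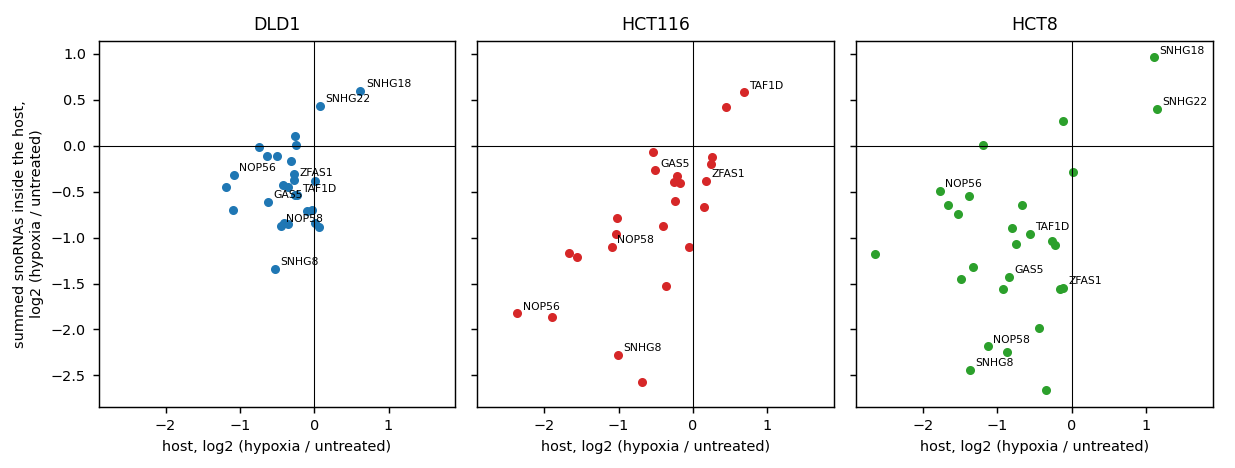
Log2 ratio of hypoxia to untreated CPM of each host (horizontal axis) and of the snoRNA genes inside it, summed (vertical axis), 1 panel per line and 1 point per host, with some hosts named. Most points lie at lower left (20 of 27 hosts in DLD1, 18 of 24 in HCT116 on column totals and 11 of 24 on the TMM scale, 22 of 27 in HCT8), TAF1D lies in the upper right in HCT116 only, and SNHG18 lies in the upper right in DLD1 and HCT8. On column totals, 50.8% of all genes were lower in DLD1, 66.1% in HCT116 and 49.5% in HCT8.

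Genes of the same machinery were read from lists. Under the paired fit, 17 of 18 genes of nucleolar rRNA processing had a log2 fold change below 0 (median −0.83), and RRP9, a protein of the U3 snoRNP, was called lower (−1.33, edgeR adjusted p = 0.0341, lost without the HCT8 pair). The highest of this list was NOB1 (0.17). Of 11 genes of RNA polymerase I and its SL1 factor, 10 were below 0 (median −0.66), with POLR1B at −1.08 and POLR1D at 0.47, and none passed. The snoRNP core partners SNU13, NOP10, NHP2 and GAR1 were all below 0 (median −0.58, GAR1 −0.67, NOP10 −0.04), and of 11 snoRNP assembly factors 8 were below 0 (median −0.40, NOLC1 −0.81, PIH1D1 0.38); none of them passed. Nonsense-mediated decay factors, 6 above and 4 below 0, had a median of 0.06, from −0.64 (SMG8) to 0.29 (UPF2). Of the EIF4A paralogs and partners, 3 were above and 3 below 0 (median 0.03, EIF4G1 −0.24, EIF4H 0.32), and again none passed. Over all genes 0.950% were called and 47.8% were below 0. Between CRC and normal lines no gene of any list passed, with medians of −0.26 for rRNA processing, 0.20 for RNA polymerase I, −0.48 for core partners, 0.03 for assembly, 0.04 for nonsense-mediated decay and −0.11 for the EIF4A list; the lowest genes were NOP2 (−0.76), RRN3 (−1.11), SNU13 (−0.86), COIL (−0.36), SMG8 (−0.61) and EIF4B (−0.23), and the highest UTP14A (0.21), POLR1D (0.79), GAR1 (0.25), PIH1D1 (0.42), UPF3A (1.06) and PDCD4 (0.26).

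Some hosts share a start region with a gene on the opposite strand, and the strand of the counting was not given. SNHG18 starts 125 bases from SEMA5A, a semaphorin. SEMA5A had 80.0 CPM in DLD1 (179 under hypoxia) and 143 in HCT8 (289.8 under hypoxia), against 0.0383 CPM in HCT116 (0.271 under hypoxia), 0.285 in NCM460 and 2.72 in HIEC6. It was thus high in the same 4 libraries as SNHG18 and higher under hypoxia in DLD1 and HCT8 (paired log2 fold change 1.28, SE 0.27, edgeR adjusted p = 0.0766). SNHG1 starts 224 bases from an annotated start of SLC3A2, the heavy chain of amino acid transporters. SLC3A2 went from 704, 400.0 and 372 CPM in DLD1, HCT116 and HCT8 to 326, 63.1 and 119.5 CPM (−1.67, SE 0.25, edgeR adjusted p = 0.0291, lost without the HCT8 pair). SNHG1 itself went from 84.5, 96.7 and 54.3 CPM to 63.1, 73.2 and 45.1 CPM, within 1.5-fold in each line. The other hosts with such a neighbour within 1000 bases were SNHG10, SNHG19, SNHG22, GAS5, TAF1D and NOP56, and none of these neighbours passed.

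**Figure D5:**
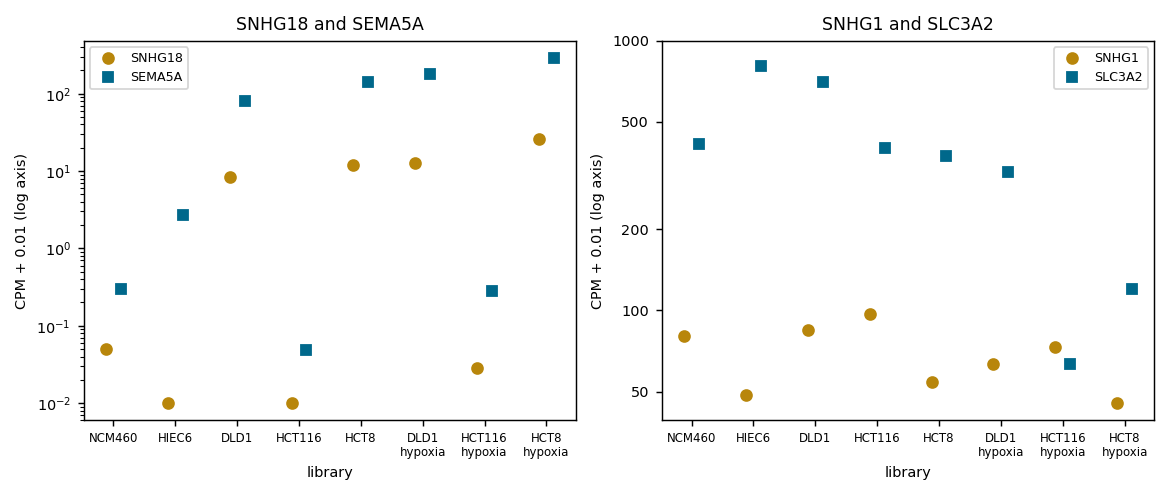
CPM plus 0.01 (log axes) in the 8 libraries for SNHG18 with SEMA5A (left) and for SNHG1 with SLC3A2 (right), each pair starting within 1000 bases on opposite strands. SNHG18 and SEMA5A are high in the same 4 libraries of DLD1 and HCT8, while in HCT116 under hypoxia SLC3A2 is at 63.1 CPM and SNHG1 at 73.2 CPM.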

How the data were processed

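Total RNA was depleted of ribosomal RNA and sequenced by the authors, and the deposited table gives raw read counts by gene in 8 columns, all used. The study's methods name GRCh37.p13, and the submitters' processing notes list HISAT2 2.0.4 and GRCh38; the counter, strand and handling of reads with several matches are not given in the sources used here. Groups came from the sample labels. CPM used column totals. Tests used edgeR 4.0.16 in R 4.3.3 (glmQLFit and glmQLFTest, TMM, Benjamini-Hochberg over all genes, threshold 0.05) on genes that reached 10 counts in 2 or more of the fitted libraries, and were tested on simulated data. The SE of a log2 fold change is its size over the root of F. Replicate numbers of the labels mark the same cell line in the hypoxia comparison and pair its libraries: the correlation of deviations from the group mean was 0.873 for DLD1, 0.870 for HCT116, 0.865 for HCT8 and −0.620 to −0.098 across different lines. Deviations from the mean of a few lines offset each other, so negative values across different lines were likely in advance and carry no weight. Within-line ratios used genes with at least 20 counts over both libraries. Counting intervals are exact at 95%.

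Genes given in every library are the 8 with the highest mean CPM, the 5 highest and 5 lowest log2 fold changes per comparison (mean CPM of at least 2), those past the threshold, those over 1.5-fold in all 3 lines, and the 5 with the widest range of log2(CPM + 0.1) over untreated lines; of the lists, the genes past the threshold and both extremes. NOP58, FBL, SNHG1, SNHG19 and the neighbours were added after their values were seen. Members, lists and rules were chosen with earlier results of these data known. Start sites and snoRNA positions are RefSeq's (GRCh38.p14). Alternatives used DESeq2 1.42.0, limma 3.58.1, other scalings and filters, the replicate block, and each library left out.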

Additional observations from a re-analysis of the deposited data

Results flagged for a closer look

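In 8 hosts, hypoxia and untreated libraries differed in opposite directions between lines, with the 95% counting interval of the ratio off 1 in each line named, on column totals and after TMM normalization. The difference between the lines was not tested, since each line has 1 library per condition. The log2 ratio of CPM (hypoxia over untreated) of TAF1D was 0.68 in HCT116, −0.23 in DLD1 and −0.57 in HCT8. SNHG5 had 0.44 in HCT116, −0.31 in DLD1 and −0.22 in HCT8, and ZFAS1 had 0.17, −0.27 and −0.12 in the same lines. SNHG16 had 0.26 in HCT116 and −0.92 in HCT8, SNHG19 had 0.24 and −0.43, and SNHG6 had 0.14 and −0.16. SNHG7 had 0.25 in HCT116 and 0.21 in HCT8 but −0.34 in DLD1. FBL had 0.57 in HCT8 but −0.36 in DLD1 and −0.95 in HCT116.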

How the results depend on the processing

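Each group holds 2 or 3 lines with 1 library each, counting intervals leave out the spread between cultures, and strand and handling of shared reads are unknown, which limits low hosts and overlapping genes such as SNHG3 and RCC1. Of the alternatives tried for single hosts and 3 other named genes, 236 of 257 (CRC against normal), 264 of 279 (hypoxia) and 113 of 138 (hypoxia with the replicate block) kept direction and side of the threshold. The cause of the differences below was not tested.

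Between CRC and normal lines DESeq2 called 143 genes. The hosts' median log2 fold change was 0.28 on column totals, 0.33 with the replicate block (numbers there mark different lines) and −0.15 to 0.45 over the libraries left out. EIF4A2 turned to 0.034 on column totals, 0.0042 with limma-trend and 0.029 with the replicate block. Leaving out libraries gave −0.10 to 0.34 for SNHG3, −0.17 to 1.65 for SNHG5, −0.52 to 1.59 for SNHG6, −0.34 to 1.59 for SNHG8, −1.82 to 0.34 for SNHG10, −0.46 to 0.94 for GAS5, −0.21 to 1.25 for ZFAS1, −0.037 to 1.70 for EPB41L4A-AS1, −0.29 to 0.77 for TAF1D, −0.019 to 0.65 for NOP56, −0.60 to 0.62 for EIF4A2 and −0.75 to 0.13 for DKC1.

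Under hypoxia DESeq2 called 55 genes, and the replicate block 200 genes and 1 host. SNHG16 turned to −0.083 with limma-trend and −0.079 with the replicate block, and EPB41L4A-AS1 to 0.0043 with upper-quartile normalization. Leaving out libraries gave −0.38 to 0.51 for SNHG5, −1.01 to 1.33 for SNHG6, −0.39 to 0.67 for SNHG7, −1.31 to 1.22 for SNHG16, −0.44 to 0.10 for DANCR, −0.75 to 0.83 for ZFAS1, −0.35 to 0.14 for EPB41L4A-AS1 and −0.62 to 0.88 for TAF1D.

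With the replicate block DESeq2 called 1666 genes and 6 hosts, and column totals 2 hosts and turned SNHG5 (−0.030), ZFAS1 (−0.072) and TAF1D (−0.039). Leaving out a line gave 6 genes and 0 hosts (HCT8) to 738 genes and 6 hosts (HCT116), and −0.26 to 0.30 for SNHG5, −0.042 to 0.30 for SNHG6, −0.060 to 0.42 for SNHG7, −0.45 to 0.34 for SNHG16, −0.19 to 0.21 for ZFAS1, −0.30 to 0.044 for EPB41L4A-AS1 and −0.39 to 0.42 for TAF1D. At 2-fold, 3 hosts were lower and 0 higher in DLD1 (4.37% and 8.66% of genes), 9 lower and 0 higher in HCT116 (24.3% and 10.2%) and 11 lower and 2 higher in HCT8 (8.33% and 12.3%). On the TMM scale 5 were over 1.5-fold higher in HCT116, and host and summed snoRNAs were both lower in 11 hosts there.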
